A study of Homo sapiens with 16 samples.

Results

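The 42 genes described here belong to the repair pathways that act on damaged bases, mismatches, bulky lesions and broken ends, and were followed by RNA-Seq in MUTZ-3 cells. MUTZ-3 is an acute myeloid leukaemia line with inv(3), the rearrangement that drives *EVI1* (listed in the files as *MECOM*). The genes were chosen by name, and 42 of 42 were found in every library and had at least 10 counts in at least 3 libraries, as did 18597 of the 60623 genes listed. Of the 42 genes, 19 act in base excision repair, 5 in mismatch repair, 8 in end joining, 9 in nucleotide excision repair and 1, *MGMT*, in direct reversal. Homologous recombination and the Fanconi anaemia genes were not examined.

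The study asked what PARP inhibition (PARPi) and loss of *EVI1* do to these cells. For PARPi, cells were kept for 12, 24 or 48 h with the vehicle DMSO, with talazoparib at 1 µM or with olaparib at 10 µM, and untreated cells were taken at 0 h. For the knockdown, cells were transduced with lentiviral pLKO.1 vectors carrying a non-targeting control (NTC) or 1 of the shRNAs shEVI1-2531 and shEVI1-2532, selected with puromycin and harvested at day 3 or day 6. All 16 conditions were grown with GM-CSF and with medium conditioned by a bladder carcinoma line, and each was sequenced as 1 library. A ratio of 2 libraries therefore has no replicate check, the p-values below measure the spread between these libraries only, and 1 line stands for the disease. Totals ran from 55999673 to 72681943 counts per library for PARPi and from 95523038 to 120716213 for the knockdown. Levels are given as CPM, read counts scaled to library size after TMM normalisation. A gene with 0 counts in a library could still have a level of up to 3 counts, which is 0.0249 to 0.0536 CPM before TMM normalisation.

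Base excision repair begins with glycosylases, each of which cuts certain damaged bases from the sugar. AP endonucleases then open the strand, a polymerase fills the gap and a ligase closes it, and PARP1, the target of both inhibitors, binds the open strand. Mismatch repair corrects errors of replication, so that its proteins are commonly most abundant in dividing cells. End joining seals double-strand breaks at any stage of the cell cycle, and nucleotide excision repair removes bulky lesions, in part behind stalled RNA polymerase.

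The labelled cell type was checked with its markers. *MPO*, a myeloid granule enzyme, was at 595 to 4823 CPM, and *CD33*, a myeloid surface antigen, at 76.3 to 183 CPM in the 16 libraries. Of the markers of other lineages, *ALB* was at 0 in 15 libraries and at 0.0112 CPM in the other, *EPCAM* reached 0.0621 CPM and *HBB* 0.183 CPM, while *CD3E*, a T cell gene, lay at 1.18 to 7.79 CPM. *MECOM* was at 40.5 and 37.2 CPM with NTC, 13.2 and 17.5 CPM with shEVI1-2531 and 5.15 and 4.33 CPM with shEVI1-2532 at day 3 and day 6. The level in every shEVI1 library was thus below both NTC libraries, and lower with shEVI1-2532 than with shEVI1-2531. In the inhibitor experiment *MECOM* was at 28.3 CPM in untreated cells and at 49, 49.1 and 61.8 CPM with DMSO, 44.8, 38.7 and 23.1 CPM with olaparib and 45.1, 30.9 and 9.9 CPM with talazoparib at 12, 24 and 48 h, so both inhibitor libraries lay below DMSO at each hour.

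Levels between genes were compared as CPM per kilobase of exon, over the 6 control libraries (untreated, DMSO and NTC). The range was wide. The Ku subunits, which bind broken ends, stood at the top with *XRCC6* (Ku70) at a median of 288 (205 to 317) and *XRCC5* (Ku80) at 160.0 (94.5 to 175) CPM per kilobase. Between them lay *APEX1*, the main AP endonuclease, with a median of 215 (173 to 258). The range of *APEX1* overlapped with those of both Ku genes. *XRCC6* lay at the 99.3rd percentile of the 18597 genes. At the low end, *MLH3*, a MutL subunit, had a median of 0.0243, *NHEJ1*, the ligation scaffold XLF, 0.0806, *NEIL1* 0.161 and *MUTYH* 0.171 CPM per kilobase. These genes were counted with few reads (11 to 37 for *MLH3* and 5 to 31 for *NHEJ1* per library), so their ratios are imprecise.

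Some counts are uncertain because genes share sequence. The exons of *NHEJ1* are covered to 65.4% on the same strand by AC068946.1, and those of *ERCC5* to 63.2% by the read-through gene *BIVM-ERCC5*. Opposite-strand genes cover 29.1% of the exons of *LIG3* (*RFFL*), 27.3% of *MPG* (*NPRL3*), 26.4% of *NEIL1* (*MAN2C1*), 25.7% of *ERCC4* (AC010401.1), 25.0% of *OGG1* (*CAMK1*) and 28.6% of *ERCC1* (*CD3EAP*). Smaller overlaps with genes that were counted highly were those of *NTHL1* with *TSC2* (16.5%, 52716 counts over the 16 libraries), *MSH6* with *FBXO11* (16.2%, 42475 counts) and *OGG1* with *TADA3* (4.1%, 147981 counts), while *CAMK1* had 113 counts. Whether counting used strand is not given in the sources used here. The exons of *ERCC8* are shared to 28.3% with the pseudogene *GNL3LP1*. *PMS2* has near-identical pseudogene copies, and its reads could be split or dropped.

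Promoter sequences are shown for 4 members, because the letters that E2F factors bind, which are known from genes of S phase, could be looked for in them. RefSeq windows on GRCh38.p14 of 300 bases, 250 before to 50 after a transcription start, were matched for 37 members by symbol, with 58 windows in all. The last 150 bases before the start are printed 5′ to 3′ on the strand of the gene. Capitals mark the E2F core, searched on both strands as ttcccgc and also as ttcgcgc, further as ttgccgc and finally as ttggcgc.
*UNG* (chr12:109097447-109097596, plus strand): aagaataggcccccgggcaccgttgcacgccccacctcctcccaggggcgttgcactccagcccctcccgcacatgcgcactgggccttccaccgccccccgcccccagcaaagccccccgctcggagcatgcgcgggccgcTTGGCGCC
*LIG3* (chr17:34980362-34980511, plus strand): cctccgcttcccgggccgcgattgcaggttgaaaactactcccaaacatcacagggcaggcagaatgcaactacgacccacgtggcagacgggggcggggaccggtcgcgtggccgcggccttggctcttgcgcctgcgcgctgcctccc
*XPA* (chr9:97697341-97697490, minus strand): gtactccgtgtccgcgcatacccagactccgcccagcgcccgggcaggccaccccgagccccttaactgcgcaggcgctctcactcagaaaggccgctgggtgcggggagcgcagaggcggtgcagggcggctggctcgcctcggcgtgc
*OGG1* (chr3:9749802-9749951, plus strand): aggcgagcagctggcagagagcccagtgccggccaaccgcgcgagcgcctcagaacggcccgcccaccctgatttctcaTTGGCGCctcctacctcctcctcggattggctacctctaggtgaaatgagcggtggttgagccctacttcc
The core began 8 bases before the start in *UNG*, overlapped there with a second match that ran past the start, and 71 bases before the start in *OGG1*. None was found in the windows of *LIG3* and *XPA*. At least 1 window held it for 19 of 37 members (51.4%) and for 4169 of 27305 genes in the table (15.3%). By window, 24 of 58 held it, against 13.0% of 35116. The share was 8 of 14 among members that fell with the inhibitors at 48 h, 10 of 19 among those not called and 1 of 4 among those that rose. The windows thus held the letters about as often in members that fell as in those not called. The CCAAT box (letters ccaat) was found for 23 of 37 members and 39.7% of genes, and the CHR element (tttgaa or ttcgaa) for 6 of 37 members and 19.5% of genes. A match describes letters in a window and not a bound site.

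The first question was how the pathways responded to PARPi over time. At 48 h, 16 of the 42 genes fell and 5 rose against DMSO (edgeR's quasi-likelihood test on both inhibitors, Benjamini-Hochberg adjustment over all genes, adjusted p under 0.05). That is 38.1% lower and 11.9% higher, where 15.9% of all genes tested were lower and 16.7% higher. All 4 large pathways held genes that fell, with 6 of 19 in base excision repair, 3 of 5 in mismatch repair, 4 of 8 in end joining and 3 of 9 in nucleotide excision repair. The genes that rose were 3 glycosylases, the ligase *LIG4* and *MLH3*. The median log2 fold change was -0.19 in base excision repair, -0.55 in mismatch repair, -0.69 in end joining and -0.19 in nucleotide excision repair, beside 0.00069 for all genes tested and -0.32 for all 42 genes. In bulk RNA, fewer cells of a type and less RNA per cell cannot be told apart.

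**Figure D1:**
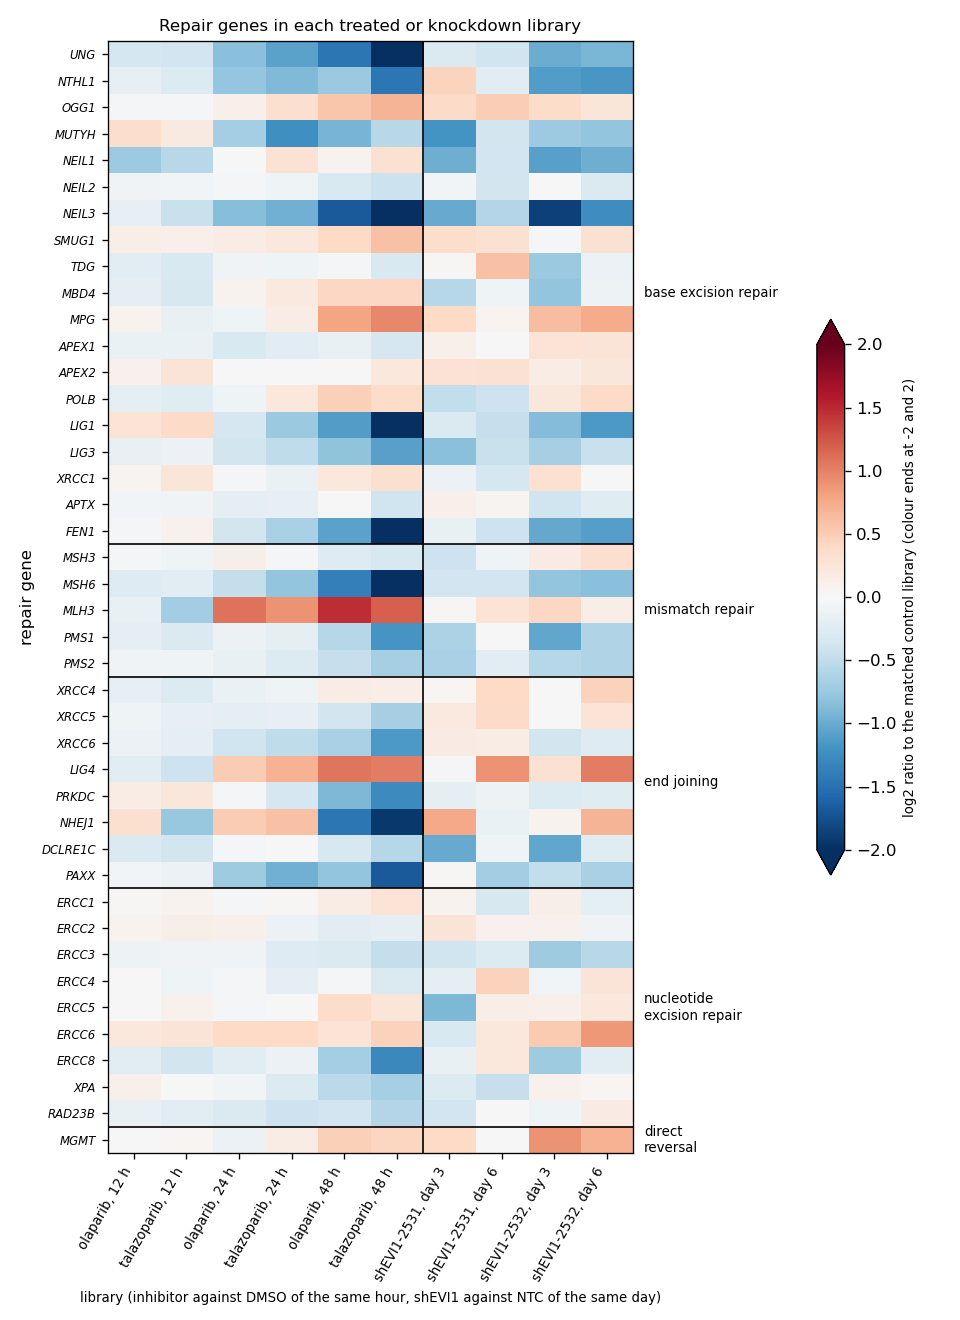
Log2 ratio of each of the 42 repair genes (rows, by pathway) to the matched control library in the 10 treated or knockdown libraries (columns); blue is lower, red is higher, and the colour scale ends at -2 and 2. The talazoparib library at 48 h holds the deepest blue, with *NEIL3* at a ratio of -3.20, while *LIG4*, *MPG* and *OGG1* are red in both libraries at 48 h.

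Of the 11 glycosylases, 3 fell, 3 rose and 5 were not called at 48 h. *UNG*, which removes uracil from DNA, was at 90.4, 83.3 and 72.3 CPM with DMSO, 70.8, 46.9 and 26.6 CPM with olaparib and 69.4, 39.9 and 13.6 CPM with talazoparib at 12, 24 and 48 h. Both inhibitor libraries lay below DMSO at each hour, and the gap widened with time. At 48 h *UNG* fell, with a change of -1.84 ± 0.30 (SE) on the log2 scale (adjusted p = 0.00281). *NEIL3*, a glycosylase for oxidised bases that is known from proliferating cells, was at 12.3, 16.4 and 19.6 CPM with DMSO, 10.9, 9.04 and 6.1 CPM with olaparib and 9.02, 8.38 and 2.13 CPM with talazoparib. With DMSO the level went up from hour to hour while with both inhibitors it went down, and the 48 h fold change was -2.24 ± 0.41 (SE) on the log2 scale (adjusted p = 0.0046). The untreated library held *NEIL3* at 4.99 CPM, below all 3 DMSO libraries. *NTHL1*, which removes oxidised pyrimidines, was at 29.2, 31.8 and 23.9 CPM with DMSO, 26.1, 18.7 and 14.3 CPM with olaparib and 24.2, 17.2 and 8.74 CPM with talazoparib and changed by -1.05 ± 0.24 at 48 h (adjusted p = 0.011).

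The glycosylases that rose were *MPG*, *OGG1* and *SMUG1*. *MPG*, which removes alkylated purines, was at 25.1, 34.3 and 31.9 CPM with DMSO, 26.4, 32.4 and 55 CPM with olaparib and 22.6, 38.1 and 62.2 CPM with talazoparib, so the libraries were mixed at 12 and 24 h and both inhibitors stood above all other libraries at 48 h. Its change was 0.88 ± 0.19 (SE) on the log2 scale (adjusted p = 0.00819). *OGG1*, the 8-oxoguanine glycosylase whose promoter is printed above, was at 29.9, 26.6 and 26 CPM with DMSO, 29.3, 28.6 and 38.2 CPM with olaparib and 29.4, 33.2 and 41.7 CPM with talazoparib, with a change of 0.62 ± 0.17 (SE) on the log2 scale (adjusted p = 0.0216). *SMUG1*, a further uracil glycosylase, was at 25.2, 27 and 29.3 CPM with DMSO, 27.4, 30.1 and 38.8 CPM with olaparib and 27.1, 31.1 and 44 CPM with talazoparib and changed by 0.50 ± 0.16 (SE) on the log2 scale (adjusted p = 0.0409). Thus of the uracil glycosylases *UNG* fell and *SMUG1* rose. *OGG1* and *SMUG1* lost the call when libraries were scaled to their total only (adjusted p = 0.0952 and 0.217) and without either inhibitor library of 12 h (0.0543 and 0.055 for *OGG1*, 0.101 and 0.102 for *SMUG1*). *SMUG1* lost it also without either inhibitor library of 24 h (0.0663 and 0.0666) and without talazoparib at 48 h (0.0544). Over all alternatives the adjusted p was 0.00336 to 0.0952 for *OGG1* and 0.00274 to 0.217 for *SMUG1*.

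The 5 other glycosylases were not called. *MBD4*, which acts at methylated CpG sites, was at 65.1 CPM with DMSO, 86.9 CPM with olaparib and 86.9 CPM with talazoparib at 48 h (adjusted p = 0.0632). *TDG*, the thymine glycosylase, was at 92.7 CPM with DMSO, 90.5 CPM with olaparib and 74.8 CPM with talazoparib, and *NEIL2* at 11.4 CPM with DMSO, 9.28 CPM with olaparib and 8.49 CPM with talazoparib. *NEIL1* and *MUTYH* lay between 0.384 and 1.56 CPM in the inhibitor experiment.

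Downstream of the glycosylases, the AP endonucleases were not called. *APEX1* was at 423, 481 and 486 CPM with DMSO, 387, 391 and 437 CPM with olaparib and 386, 413 and 386 CPM with talazoparib, and *APEX2* at 44.3 CPM with DMSO, 44.1 CPM with olaparib and 51.3 CPM with talazoparib at 48 h. *POLB*, the polymerase that fills the gap, was at 28 CPM with DMSO, 38.9 CPM with olaparib and 36.1 CPM with talazoparib at 48 h (adjusted p = 0.1). Neither *XRCC1*, the scaffold of single-strand break repair, nor *APTX*, which cleans aborted ligation ends, was called, with log2 fold changes of 0.26 ± 0.17 and -0.19 ± 0.18. Genes of the late steps, which are shared with replication, fell. *FEN1*, the flap endonuclease, was at 167, 119 and 85.6 CPM with DMSO, 162, 92.3 and 40.9 CPM with olaparib and 176, 75.6 and 20.4 CPM with talazoparib, and changed by -1.48 ± 0.31 (SE) on the log2 scale (adjusted p = 0.00759). *LIG1*, the ligase of replication and of long-patch repair, was at 101, 92.8 and 75.3 CPM with DMSO, 121, 73.5 and 34.6 CPM with olaparib and 131, 55.1 and 18.9 CPM with talazoparib. At 12 h both inhibitor libraries lay above DMSO and at 48 h both lay below it, with a change of -1.49 ± 0.29 (SE) on the log2 scale (adjusted p = 0.00585). With DMSO alone *FEN1* and *LIG1* also declined with time, from 167 to 85.6 CPM and from 101 to 75.3 CPM.

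**Figure D2:**
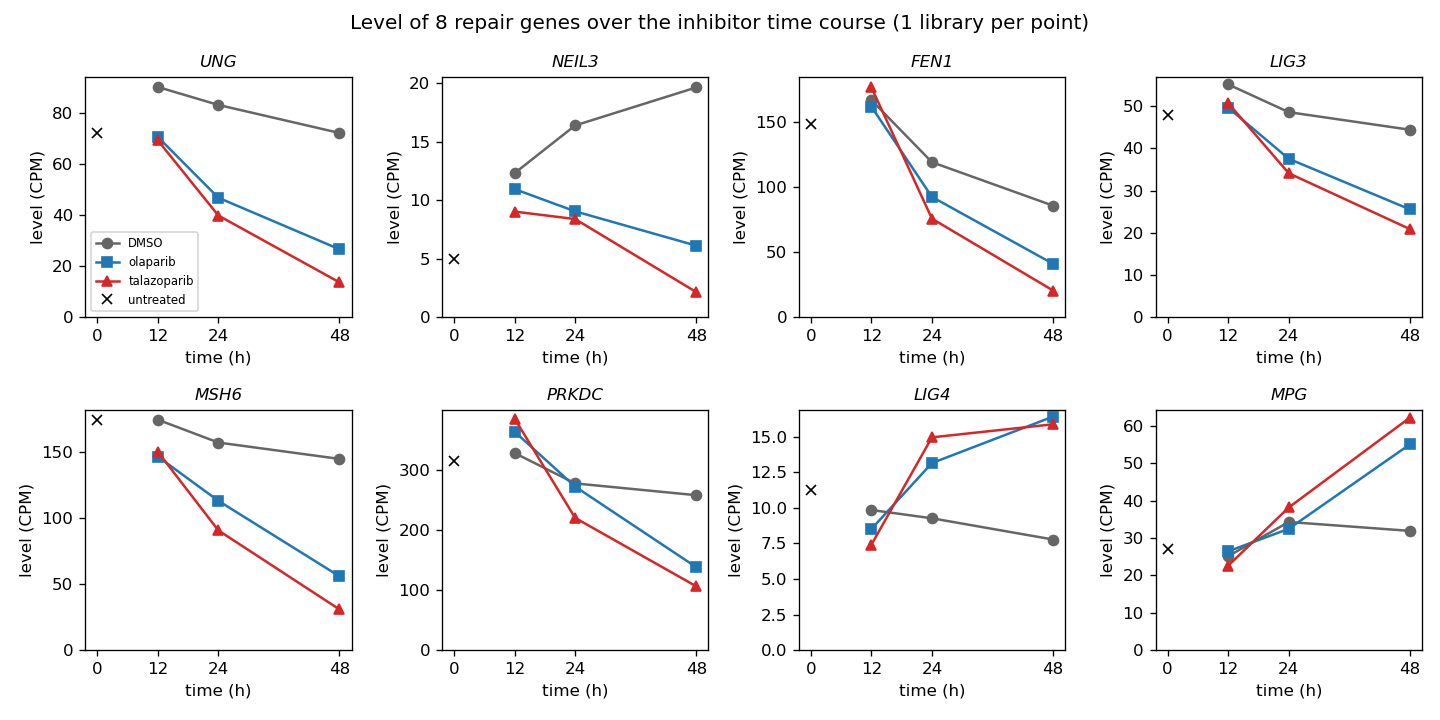
Level in CPM of 8 repair genes against time in h (1 library per point, no error bar; each vertical axis starts at 0), for DMSO, olaparib, talazoparib and untreated cells. For *UNG*, *LIG3* and *MSH6* both inhibitor lines lie below DMSO at every hour, *FEN1* falls with DMSO too, and *LIG4* and *MPG* lie above DMSO at 48 h.

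The ligases did not move together. *LIG3*, the partner of XRCC1, was at 55.1, 48.6 and 44.4 CPM with DMSO, 49.6, 37.5 and 25.5 CPM with olaparib and 50.7, 34.1 and 20.9 CPM with talazoparib, below DMSO in all 6 inhibitor libraries, and changed by -0.94 ± 0.17 (SE) on the log2 scale (adjusted p = 0.00426). *LIG4*, which closes double-strand breaks in end joining, was at 9.86, 9.27 and 7.78 CPM with DMSO, 8.52, 13.2 and 16.4 CPM with olaparib and 7.42, 15 and 15.9 CPM with talazoparib. It lay below DMSO at 12 h and above it at 24 and 48 h, and rose at 48 h by 1.05 ± 0.19 (SE) on the log2 scale (adjusted p = 0.00407). *LIG4* kept its call under 14 of 14 alternatives, with an adjusted p of 1.36e-05 to 0.0176.

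In mismatch repair, *MSH6*, which recognises single-base mismatches, was at 174, 157 and 145 CPM with DMSO, 146, 113 and 55.9 CPM with olaparib and 150.2, 90.6 and 30.8 CPM with talazoparib. All 6 inhibitor libraries lay below the DMSO library of their hour, and the change at 48 h was -1.74 ± 0.28 (SE) on the log2 scale (adjusted p = 0.00278). *MSH3*, which takes its place for larger loops, was at 28.7 CPM with DMSO, 24.1 CPM with olaparib and 22.9 CPM with talazoparib at 48 h and was not called (adjusted p = 0.182). Of the MutL subunits, *PMS2* was at 26.2 CPM with DMSO, 19.1 CPM with olaparib and 16.6 CPM with talazoparib and *PMS1* at 25.8 CPM with DMSO, 17.4 CPM with olaparib and 11.4 CPM with talazoparib at 48 h. The untreated library held *PMS2* at 16.4 CPM and *PMS1* at 11.9 CPM, below every DMSO library. Against DMSO at 48 h both genes fell, with changes of -0.55 ± 0.16 (adjusted p = 0.0282) and -0.84 ± 0.22 (adjusted p = 0.0189) on the log2 scale. *MLH3* went the other way at 0.244 CPM with DMSO, 0.676 CPM with olaparib and 0.559 CPM with talazoparib, which stands for 16, 37 and 27 counts, and its call was lost with DESeq2 (adjusted p = 0.176), with scaling to the library total only (0.0812) and without any 1 of the 6 inhibitor libraries (0.0502 to 0.0936). Over all alternatives its adjusted p was 0.00857 to 0.176.

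In end joining, *PRKDC*, which encodes the kinase DNA-PKcs, was at 327, 277 and 257 CPM with DMSO, 363, 272 and 138 CPM with olaparib and 385, 219.6 and 106 CPM with talazoparib. It was above DMSO with both inhibitors at 12 h and below it with both at 48 h, when it fell, with a change of -1.08 ± 0.19 (SE) on the log2 scale (adjusted p = 0.00403). The Ku genes fell as well. *XRCC6* was at 948 CPM with DMSO, 603 CPM with olaparib and 429.8 CPM with talazoparib at 48 h (-0.88 ± 0.20, adjusted p = 0.0101) and *XRCC5* at 914 CPM with DMSO, 709 CPM with olaparib and 577 CPM with talazoparib (-0.51 ± 0.17, adjusted p = 0.0427). *PAXX*, a Ku-binding scaffold, was at 28.3 CPM with DMSO, 16.3 CPM with olaparib and 8.87 CPM with talazoparib and changed by -1.17 ± 0.28 (SE) on the log2 scale (adjusted p = 0.0135). Not called were *XRCC4*, the partner of *LIG4* in ligation, at 19.6 CPM with DMSO, 21.8 CPM with olaparib and 21.4 CPM with talazoparib, and *DCLRE1C*, the nuclease Artemis, at 50.1 CPM with DMSO, 40 CPM with olaparib and 33.6 CPM with talazoparib (adjusted p = 0.0624). *NHEJ1* was not called (adjusted p = 0.056) at 26, 8 and 5 counts. Thus *LIG4* rose while its scaffold *XRCC4* was not called and the end-binding genes fell.

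In nucleotide excision repair 3 of 9 genes fell and 0 rose, where 15.9% of all genes were lower and 16.7% higher. Of the 9 genes, 5 had an unadjusted p under 0.05, beside 44.3% of all genes. All of the 9 that lay above DMSO missed the threshold for a call. *ERCC8* (CSA), of the transcription-coupled branch, was at 14.3 CPM with DMSO, 8.99 CPM with olaparib and 5.86 CPM with talazoparib at 48 h and changed by -0.95 ± 0.23 (SE) on the log2 scale (adjusted p = 0.0142). *XPA*, which verifies damage, was at 10.1 CPM with DMSO, 6.95 CPM with olaparib and 6.4 CPM with talazoparib (-0.60 ± 0.18, adjusted p = 0.0314), and *RAD23B*, of the recognition complex, at 239.6 CPM with DMSO, 184 CPM with olaparib and 159 CPM with talazoparib (-0.48 ± 0.15, adjusted p = 0.039). The incision genes *ERCC1*, *ERCC4* and *ERCC5* and the TFIIH helicases *ERCC2* and *ERCC3* were not called, with log2 fold changes from -0.38 to 0.30. *ERCC6* (CSB), the partner of CSA in the transcription-coupled branch, was at 14.8, 15.8 and 16.1 CPM with DMSO, 17.2, 20.8 and 19.4 CPM with olaparib and 17.6, 20.9 and 22.2 CPM with talazoparib, above DMSO in all 6 inhibitor libraries, but it was not called at 48 h (0.37 ± 0.16, adjusted p = 0.111). *MGMT*, which takes methyl groups off guanine, was at 24.1 CPM with DMSO, 33.5 CPM with olaparib and 32.5 CPM with talazoparib at 48 h (adjusted p = 0.0708).

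At 12 h, 0 of 42 genes were called by edgeR in either direction, 0 had an unadjusted p under 0.05 and DESeq2 called 0. Of all genes tested 0% were lower and 0.129% higher. The largest departures by p were *NEIL1* at -0.64 ± 0.30 and *ERCC6* at 0.24 ± 0.16 (adjusted p = 0.999 for both). At 24 h, edgeR called 0 of 42 beside 1.88% of all genes (0.0699% lower and 1.81% higher), 9 had an unadjusted p under 0.05 (21.4%, beside 17.7% of all genes) and DESeq2 called 2 lower (4.76%, beside 0.85% of all genes lower and 4.33% higher). *NTHL1* stood at -0.82 ± 0.24 (adjusted p = 0.123) and *LIG4* at 0.60 ± 0.18 (adjusted p = 0.135). The difference between the 48 h and the 12 h effect was itself tested and passed for 2 genes, *PRKDC* at -1.27 ± 0.28 (adjusted p = 0.0461) and *LIG4* at 1.36 ± 0.26 (adjusted p = 0.0286), beside 2.88% of all genes (0.591% lower and 2.29% higher). For the other 40 genes an effect that passed at 48 h and not at 12 h was not shown to differ between these hours. These tests, like those at 48 h, rest on 1 DMSO library per hour and 3 residual degrees of freedom. The latter come from the difference between olaparib and talazoparib at each hour. Spread between DMSO libraries does not enter them.

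Averaged over the 3 hours, 0 of 42 genes passed with edgeR, where 4.38% of all genes did (1.06% lower and 3.32% higher). An unadjusted p under 0.05 was found for 16 (38.1%, beside 33.7% of all genes). DESeq2 called 9 lower and 1 higher (21.4% and 2.38%, beside 8.5% and 9.82% of all genes). On simulated counts its share of false calls was larger than that of edgeR (9.91% against 3.38%). Those counts had the same dispersion for every gene and no effect of time, so they do not tell which calls here are false. *UNG* came nearest at -1.10 ± 0.26 (adjusted p = 0.0504), and *ERCC6* was nearest among the genes above DMSO at 0.34 ± 0.10 (adjusted p = 0.0681). The inhibitors were given at different doses. Against DMSO over the 3 hours, edgeR called 0 of the 42 genes with olaparib at 10 µM (0.661% of all genes, 0.00538% lower and 0.656% higher) and 0 with talazoparib at 1 µM (4.33% of all genes, 1.15% lower and 3.18% higher). An unadjusted p under 0.05 was found for 8 and 17 of the 42 genes (19% and 40.5%, beside 17.9% and 34.8% of all genes). DESeq2 calls were not counted for each inhibitor alone. Talazoparib against olaparib gave 0 calls by edgeR among the 42 genes and 0% among all genes, with 0 of 42 at an unadjusted p under 0.05 and 0 called by DESeq2. The largest departures by p were *PAXX* at -0.36 ± 0.24 and *APEX2* at 0.13 ± 0.11 (adjusted p = 0.958 for both).

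Genes listed with the same pathways outside the 42 were counted at 48 h. Of 14 genes of repair synthesis (the sliding clamp PCNA, its loader RFC, polymerases delta and epsilon and RPA), 11 fell and 1 rose. *RFC1* changed by -1.27 ± 0.20 and *POLD1* by -1.32 ± 0.23, while *POLD4*, a small subunit of polymerase delta, rose by 1.71 ± 0.27. Of 6 further genes of single-strand break repair 3 fell, namely *PARP1* (322 CPM with DMSO, 183 CPM with olaparib and 137 CPM with talazoparib), *PARP2* (-1.46 ± 0.26) and *TDP1* (-0.83 ± 0.19). Of 7 further end-joining genes 4 fell, among them *RIF1* (-1.39 ± 0.23) and *POLQ* (-1.93 ± 0.33), the polymerase of microhomology-mediated joining. Both further genes listed with mismatch repair fell, *EXO1* (-1.54 ± 0.38), the exonuclease of the pathway, and *MSH5* (-1.02 ± 0.31). *MSH5* is a MutS relative that is not a core mismatch repair gene. It had 117 counts with DMSO, 56 with olaparib and 35 with talazoparib. Of 16 further nucleotide excision genes 2 fell, *CUL4A* (-0.63 ± 0.15) and *GTF2H3* (-0.53 ± 0.18). *XPC*, the lesion sensor, was the 1 that rose, at 35.8, 27.8 and 22.7 CPM with DMSO, 59.7, 48.4 and 36.8 CPM with olaparib and 71.5, 44.8 and 37.9 CPM with talazoparib over the 3 hours, above DMSO in all 6 inhibitor libraries. Of 2 further direct reversal genes, *ALKBH2* and *ALKBH3*, 0 were called by edgeR and 0 had an unadjusted p under 0.05. The median log2 fold change was -0.94 for repair synthesis and 0.02 for the further nucleotide excision genes.

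Other gene groups moved at the same hours. Of 12 S phase genes 11 fell at 48 h (median -1.87), and of 12 G2/M genes all 12 fell (median -2.18). The summed level of the S phase genes was 2277 CPM with DMSO, 845 CPM with olaparib and 356 CPM with talazoparib at 48 h, and that of the G2/M genes 2384, 869.9 and 249.6 CPM. Of 12 monocyte genes 10 rose, with sums of 1421, 9895 and 16470 CPM, and the marker *CD14* was at 2.78, 64.2 and 95.3 CPM. *CSF1R* of the same list was not among those that rose, at 235, 177 and 183 CPM. Neither was *CD68*, which had only 11, 8 and 9 counts. *S100A9*, *S100A8* and *LYZ* weigh most in the sums of the inhibitor libraries, with *S100A9* at 551, 5080 and 8012 CPM. In that list *CD163* was at 0 in 3 of the 16 libraries. All 11 p53 targets rose, with sums of 683, 1932 and 1944 CPM, and 6 of 11 had already risen at 12 h, when 0 of the 42 repair genes were called. Of 8 myeloid progenitor genes 4 fell and 1 rose at 48 h, with sums of 3374, 1582 and 1080.0 CPM. The part of these groups in the repair genes' changes was not tested.

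**Figure D3:**
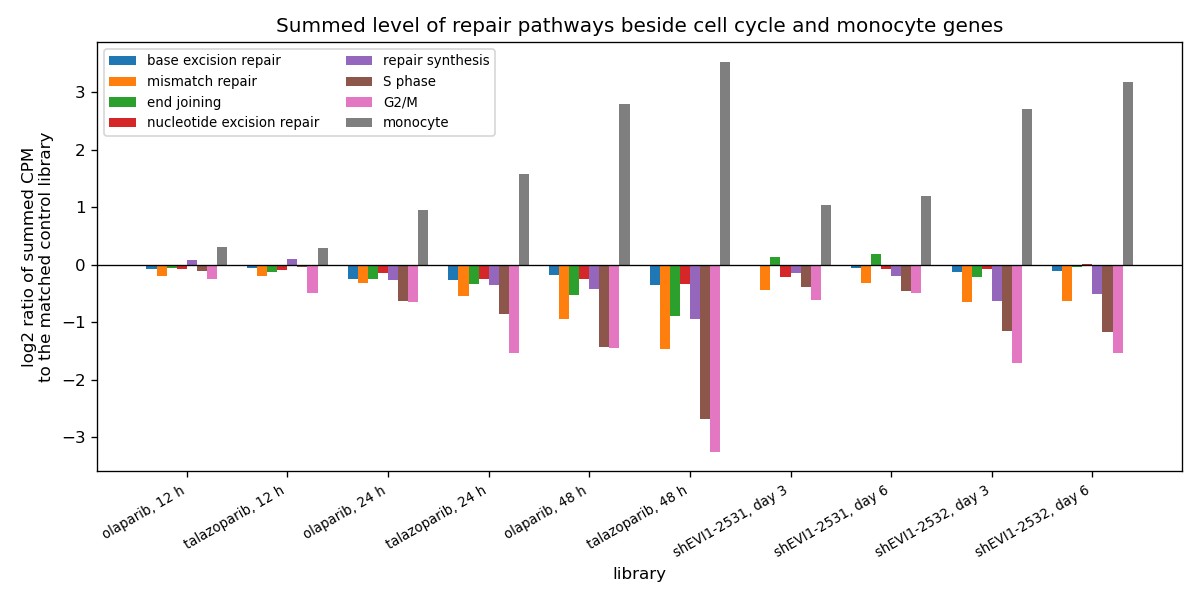
Log2 ratio of the summed CPM of 4 repair pathways, repair synthesis, S phase, G2/M and monocyte genes (bars, by colour) to the matched control library, in the 10 treated or knockdown libraries (horizontal axis; 1 library each, no error bar). Mismatch repair is at 36.4% of DMSO with talazoparib at 48 h and nucleotide excision repair at 78.9%, while S phase genes are at 15.6%.

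Summed over members, mismatch repair was at 51.9% of DMSO with olaparib and 36.4% with talazoparib at 48 h. End joining was at 69.4% and 53.6%, nucleotide excision repair at 84.5% and 78.9%, and base excision repair at 88.1% and 78.4%. The most abundant members weigh most in such sums, *MSH6* in mismatch repair, *XRCC5* and *XRCC6* in end joining and *APEX1* in base excision repair. The order of the pathways is given as values, since the difference between pathways was not tested. At 12 h all 4 sums lay between 87.2% and 96.1% of DMSO.

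The vehicle libraries themselves differed from the untreated library. Of the 42 genes, 31 were above it at 12 h, 29 at 24 h and 24 at 48 h, with log2 ratios at 48 h from -0.80 for *FEN1* to 1.98 for *NEIL3*. With the 24 h DMSO library as the control of the 48 h inhibitor libraries, chosen after the values were seen, 15 genes fell and 7 rose (35.7% and 16.7%, beside 16.6% and 18.3% of all genes). With the 3 DMSO libraries as 1 control group, likewise chosen after the values were seen, 19 fell and 9 rose (45.2% and 21.4%, beside 22.6% and 24% of all genes). Scaling to the library total only, which moved the median of all genes to -0.22 at 48 h, gave 22 lower and 2 higher in place of 16 and 5, so that 91.7% and not 76.2% of the called members were lower. Over all genes the share of calls that were lower moved alike, to 66.9% from 48.8%.

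The next question was what loss of *EVI1* did to the same genes. With shEVI1-2532, 14 of 42 genes fell and 3 rose against NTC over both days (33.3% and 7.14%), where 19.8% of all genes tested were lower and 21.2% higher. By pathway, 8 fell and 1 rose of 19 in base excision repair, 3 fell of 5 in mismatch repair, 2 fell of 8 in end joining, and 1 fell and 1 rose of 9 in nucleotide excision repair, while *MGMT* rose. The medians were -0.44, -0.58, -0.06 and 0.03 in these pathways, beside -0.00299 for all genes. With shEVI1-2531, 2 of 42 fell and 0 rose (4.76% lower, where 7.89% of all genes were lower and 9.5% higher), 12 had an unadjusted p under 0.05 (28.6%, beside 31.1% of all genes) and DESeq2 called 4 lower and 1 higher (9.52% and 2.38%, beside 8.34% and 10.1% of all genes). The knockdown fits have 2 residual degrees of freedom.

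With shEVI1-2532 the genes with the smallest p were those of the late steps. *FEN1* was at 87.1 and 117 CPM with NTC, 78.6 and 88 CPM with shEVI1-2531 and 43 and 54.4 CPM with shEVI1-2532 at day 3 and day 6, below NTC and below shEVI1-2531 on each day, and fell, with a change of -1.06 ± 0.14 (SE) on the log2 scale (adjusted p = 5.61e-05). *LIG1* was at 67.4 and 95.5 CPM with NTC, 55.1 and 69.1 CPM with shEVI1-2531 and 36.9 and 43 CPM with shEVI1-2532 and fell, with a change of -1.01 ± 0.14 (SE) on the log2 scale (adjusted p = 0.000101). Of the glycosylases, *NEIL3* was at 14.1 and 7.22 CPM with NTC, 6.97 and 4.83 CPM with shEVI1-2531 and 3.85 and 3.04 CPM with shEVI1-2532 (-1.56 ± 0.22, adjusted p = 0.000111). *UNG* was at 65 and 60.9 CPM with NTC, 53 and 46.1 CPM with shEVI1-2531 and 32.8 and 32.4 CPM with shEVI1-2532, with all 4 shEVI1 libraries below both NTC libraries, and fell, with a change of -0.95 ± 0.14 (SE) on the log2 scale (adjusted p = 0.000213). *MSH6* was at 111 and 117 CPM with NTC, 85.2 and 89.3 CPM with shEVI1-2531 and 64 and 65.4 CPM with shEVI1-2532, again with all 4 below both NTC libraries, and fell, with a change of -0.82 ± 0.13 (SE) on the log2 scale (adjusted p = 0.000281).

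The other genes that fell with shEVI1-2532 were *NTHL1*, *NEIL1*, *TDG*, *LIG3*, *PMS1*, *PMS2*, *DCLRE1C*, *PAXX* and *ERCC3*, with log2 fold changes from -1.14 (*NTHL1*) to -0.44 (*TDG*). *TDG* was at 92.1 and 48.5 CPM with NTC, 94 and 72.7 CPM with shEVI1-2531 and 55.1 and 44.9 CPM with shEVI1-2532, so that the NTC libraries of the 2 days themselves differed more than NTC and shEVI1-2531 did at day 3. *MGMT* was at 29 and 25.1 CPM with NTC, 38.1 and 25 CPM with shEVI1-2531 and 53.9 and 40.5 CPM with shEVI1-2532, above NTC on each day with shEVI1-2532, and rose by 0.79 ± 0.16 (SE) on the log2 scale (adjusted p = 0.00182). *MPG* was at 35.9 and 33.3 CPM with NTC, 47.5 and 34.7 CPM with shEVI1-2531 and 54.9 and 55.6 CPM with shEVI1-2532 and rose by 0.68 ± 0.16 (SE) on the log2 scale (adjusted p = 0.00466). *ERCC6* was at 12.3 and 13 CPM with NTC, 9.97 and 15.1 CPM with shEVI1-2531 and 17.7 and 23.9 CPM with shEVI1-2532 and rose by 0.69 ± 0.18 (SE) on the log2 scale (adjusted p = 0.00929). *MPG* and *ERCC6* lost the call when libraries were scaled to their total only (adjusted p = 0.0748 and 0.106) and without the shEVI1-2532 library of day 6 (0.0975 and 0.0685), and *ERCC6* also without the NTC library of day 6 (0.0943). Their adjusted p was 0.000363 to 0.0975 and 0.00133 to 0.119 over all alternatives. Without the shEVI1-2532 library of day 6, 1 gene was called higher in place of 3. Without the NTC or the shEVI1-2532 library of day 3, 8 were called lower in place of 14.

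**Figure D4:**
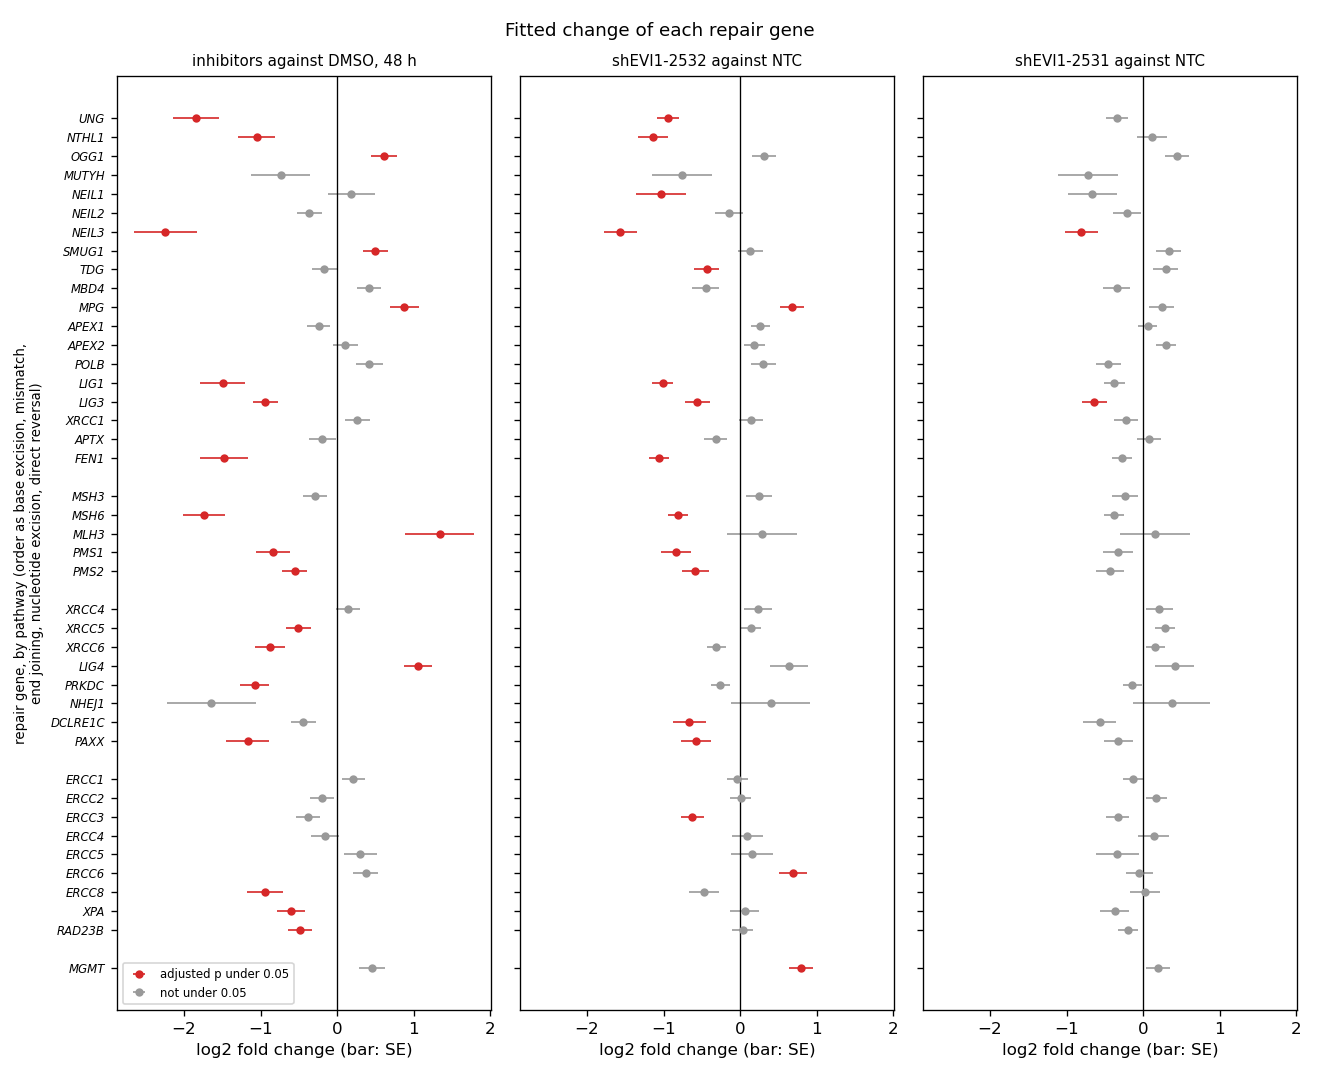
Fitted log2 fold change (horizontal axis; bar, 1 SE) of the 42 repair genes (vertical axis, by pathway) for the inhibitors at 48 h, shEVI1-2532 and shEVI1-2531; red marks an adjusted p under 0.05. Red points lie mostly left of 0 in the first and second panel (16 lower and 5 higher, 14 lower and 3 higher), and 2 points are red in the third.

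With shEVI1-2531, *LIG3* was at 33.9 and 35.8 CPM with NTC, 19.1 and 26.3 CPM with shEVI1-2531 and 21.5 and 26.2 CPM with shEVI1-2532 and fell, with a change of -0.64 ± 0.17 (SE) on the log2 scale (adjusted p = 0.0194), and *NEIL3* fell, with a change of -0.81 ± 0.21 (SE) on the log2 scale (adjusted p = 0.0198). Both calls were lost without the NTC library of day 3 (adjusted p = 0.152 and 0.236) and without the shEVI1-2531 library of day 3 (0.2 and 0.131), with 0.00179 to 0.273 for *LIG3* and 0.00225 to 0.269 for *NEIL3* over all alternatives. *OGG1* came nearest among genes above NTC, at 25.6 and 25.9 CPM with NTC, 33.4 and 36.6 CPM with shEVI1-2531 and 33.1 and 30.8 CPM with shEVI1-2532 (0.44 ± 0.16, adjusted p = 0.0709). Scaled to the library total only, shEVI1-2531 gave 10 lower in place of 2 and shEVI1-2532 gave 20 lower and 1 higher in place of 14 and 3, with the medians of all genes at -0.16 and -0.31. Of all calls 68.5% and 71.8% were then lower, in place of 45.4% and 48.3%.

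The shRNAs were tested against each other, where 12% of all genes were lower and 12.3% higher with shEVI1-2532. Of the 42 genes 8 were lower and 3 higher. *NTHL1* was at 21.8 and 23.6 CPM with NTC, 29.6 and 20.1 CPM with shEVI1-2531 and 10 and 10.6 CPM with shEVI1-2532, so both shEVI1-2532 libraries lay below all 4 others, and the difference was -1.26 ± 0.20 (adjusted p = 0.000768). *FEN1* (-0.78 ± 0.13, adjusted p = 0.0013), *LIG1* (-0.63 ± 0.14, adjusted p = 0.0058), *TDG* (-0.73 ± 0.16, adjusted p = 0.00646) and *UNG* (-0.60 ± 0.14, adjusted p = 0.00903) were also lower with shEVI1-2532, as were *NEIL3*, *MSH6* and *XRCC6*. *POLB*, the gap-filling polymerase, was higher at 25.6 and 13.5 CPM with NTC, 18.2 and 10.1 CPM with shEVI1-2531 and 29.9 and 17.6 CPM with shEVI1-2532 (0.76 ± 0.17, adjusted p = 0.00569), as were *ERCC6* (0.74 ± 0.18) and *MGMT* (0.60 ± 0.16). Without the shEVI1-2532 library of day 6, 0 genes were called higher in place of 3, with adjusted p of 0.0646 for *POLB*, 0.0821 for *ERCC6* and 0.0867 for *MGMT*, and the call of *LIG1* was lost (0.0667). Without that of day 3, 3 were called lower in place of 8, and *UNG* (0.11), *TDG* (0.0503) and *MGMT* (0.115) lost the call. Without the shEVI1-2531 library of day 3 or of day 6, 5 were called lower, with *UNG* (0.0881) and *ERCC6* (0.102) lost without day 3 and *MGMT* (0.146) without day 6. Over all alternatives the adjusted p was 2.55e-09 to 0.0311 for *NTHL1*, 8.55e-06 to 0.132 for *FEN1*, 0.000861 to 0.219 for *LIG1*, 5.56e-05 to 0.238 for *TDG* and 0.00133 to 0.186 for *UNG*. It was 0.000115 to 0.339 for *POLB*, 0.000852 to 0.19 for *ERCC6* and 0.00491 to 0.293 for *MGMT*. *POLB* itself was called against NTC with neither shRNA (adjusted p = 0.161 with shEVI1-2532 and 0.0766 with shEVI1-2531).

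The Ku genes and *PRKDC*, which fell with the inhibitors, were not called with either shRNA. *XRCC6* was at 898 and 674 CPM with NTC, 1003 and 749 CPM with shEVI1-2531 and 693 and 565 CPM with shEVI1-2532, with -0.31 ± 0.12 (adjusted p = 0.0614) for shEVI1-2532. *XRCC5* was at 728 and 516 CPM with NTC, 831 and 673 CPM with shEVI1-2531 and 732 and 627 CPM with shEVI1-2532 and *PRKDC* at 148 and 202 CPM with NTC, 129 and 189.5 CPM with shEVI1-2531 and 122 and 171 CPM with shEVI1-2532, with 0.14 ± 0.13 and -0.26 ± 0.12. *LIG4* was at 5.32 and 2.43 CPM with NTC, 5.16 and 4.52 CPM with shEVI1-2531 and 6.57 and 4.93 CPM with shEVI1-2532, and its change of 0.64 ± 0.25 missed the threshold (adjusted p = 0.0593). Whether these genes differ between the 2 experiments was not tested. Of the 16 genes that fell with the inhibitors at 48 h, 10 also fell with shEVI1-2532 (62.5% of the first list and 71.4% of the second). Over all genes tested, 1797 fell in both (60.9% of the 2950 lower at 48 h and 48.9% of the 3675 lower with shEVI1-2532). The share of the first list was thus near that of all genes, and the share of the second list was above it. Both shares rest on few repair genes, and the difference from all genes was not tested. The 10 repair genes were *UNG*, *NTHL1*, *NEIL3*, *LIG1*, *LIG3*, *FEN1*, *MSH6*, *PMS1*, *PMS2* and *PAXX*. *MPG* was the 1 repair gene that rose in both, of 5 that rose at 48 h (20%) and 3 with shEVI1-2532 (33.3%). Among all genes tested, 2029 rose in both (65.5% of the 3100 higher at 48 h and 51.6% of the 3935 higher with shEVI1-2532). The share of rising repair genes was thus lower than that of all genes, but it rests on few genes. Of the repair genes, 0 were called in opposite directions. Opposite calls among all genes were few as well, at 37 for the lower and 104 for the higher list.

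Among the further genes, 10 of 14 of repair synthesis fell and 1 rose with shEVI1-2532. *RFC4* changed by -1.36 ± 0.17 and *POLD1* by -1.14 ± 0.15, and *POLD4* rose by 0.82 ± 0.19, as it had with the inhibitors. Of 6 genes of single-strand break repair 4 fell, with *PARP1* at 270.2 and 417 CPM with NTC, 174 and 273 CPM with shEVI1-2531 and 127 and 169.6 CPM with shEVI1-2532 and *PARP3* at -1.84 ± 0.34. Of 7 end-joining genes 4 fell, among them *POLQ* (-1.86 ± 0.22), and *POLL* and *TDP2* rose. *EXO1* fell, with a change of -1.47 ± 0.18. Of 16 nucleotide excision genes *GTF2H3* fell (-0.98 ± 0.18) and *DDB2*, a damage sensor, rose (0.45 ± 0.13). Of 2 direct reversal genes 0 were called and 0 had an unadjusted p under 0.05.

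The same other gene groups moved in the knockdown. With shEVI1-2532, 11 of 12 S phase genes and 12 of 12 G2/M genes fell, 10 of 12 monocyte genes and 10 of 11 p53 targets rose, and 5 of 8 progenitor genes fell while 1 rose. S phase sums were 1752 and 1830.0 CPM with NTC, 1343 and 1326 CPM with shEVI1-2531 and 782 and 813 CPM with shEVI1-2532. Monocyte sums were 1531 and 1108 CPM, 3149 and 2533 CPM, and 10050.0 and 10020.0 CPM in the same order. With shEVI1-2531, 5 of 12 S phase and 7 of 12 G2/M genes fell, and 8 of 12 monocyte genes rose. The part of these groups in the repair genes' changes was not tested.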

How the data were processed

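RNA of MUTZ-3 cells was extracted with the RNeasy Plus kit, and libraries were made with the TruSeq Stranded mRNA kit. The submitters' processing notes name STAR, Picard and featureCounts and the builds hg38 and GRCh38, without versions. The authors deposited, for each of 16 libraries, raw counts per gene and TPM. The deposited TPM were scaled over the whole gene span, introns included, and were not used. The 42 members and the other gene lists were chosen with earlier results of these data known.

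A gene entered when 3 or more libraries held 10 or more counts (18597 of 60623), and library size was the total over all genes. Counts were TMM-scaled within each experiment and fitted by quasi-likelihood (edgeR 4.0.16, R 4.3.3). The PARPi fits used 9 libraries, without the untreated one. The mean effect came from a model with time point and inhibitor as terms (4 residual degrees of freedom), and the model by hour held a common inhibitor effect at each time point (3). The knockdown model held the day and each shRNA (6 libraries, 2 residual degrees of freedom). All p-values were adjusted after Benjamini-Hochberg over the 18597 genes, with a threshold of 0.05. No 2 libraries held identical counts.

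In each comparison, full statistics are given for at most 5 members in each direction with an adjusted p under 0.05, by smallest p, or else for the nearest member in each direction; further members are given by pathway role. Further genes called in the other lists are named up to 3 in each direction, except for 1 result that is not reported here. Members named outside this rule were chosen after their values were seen.

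On simulated counts with 200 of 18597 genes changed by 1 on the log2 scale, edgeR recovered 100% for the mean PARPi effect, 96% at 48 h and 98.5% for shEVI1-2532, with 3.38%, 3.52% and 3.43% false calls. DESeq2 recovered 100%, 89.5% and 95.5%, with 9.91%, 7.25% and 2.55% false calls. The simulated counts had the same dispersion for every gene and no effect of hour or day, so these shares need not hold for the real libraries. Alternatives were DESeq2 1.42.0, other scalings, filters and thresholds, models without time point or day, and each library left out in turn. Exons were those of GENCODE v29. Plots used matplotlib 3.10.9 (Python 3.11.15). Intervals and the floor of 3 counts cover counting error only.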

Additional observations from a re-analysis of the deposited data

Results flagged for a closer look

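The effect of the inhibitors differed between 48 h and 12 h, by edgeR's test of the difference itself, for 2 of the 42 genes. *PRKDC* had a difference of -1.27 ± 0.28 (SE, log2 scale, adjusted p = 0.0461), with 0.19 at 12 h and -1.08 at 48 h. *LIG4* had a difference of 1.36 ± 0.26 (adjusted p = 0.0286), with -0.31 at 12 h and 1.05 at 48 h. Leaving out 1 inhibitor library of 12 h or 24 h ended both calls, with adjusted p from 0.0858 to 0.131 for *PRKDC* and from 0.0652 to 0.107 for *LIG4*. Over all alternatives the adjusted p was 1.79e-05 to 0.131 for *PRKDC* and 0.000274 to 0.107 for *LIG4*. The difference kept its sign under 12 of 12 alternatives for each gene, with values of -1.47 to -1.09 and 1.16 to 1.47. S phase genes stood at a median of -0.09 at 12 h and -1.87 at 48 h. Their part in these differences was not tested.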

How the results depend on the processing

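Numbers are genes lower and higher of the 42. The alternatives were compared for these counts and for at most 5 members in each direction by smallest p in each comparison. None of those members' fold changes changed sign. For the other members the sign of the fold change was not compared. For the mean PARPi effect (0 and 0), DESeq2 gave 9 and 1, no filter on low counts 9 lower, and leaving out libraries or a time point 0 to 12 and 0 to 2 (12 and 2 without DMSO at 12 h, 10 lower without talazoparib at 12 h, 2 lower without talazoparib at 48 h, 10 and 1 without the 12 h libraries, 4 lower without those of 48 h). Over all genes tested, these settings gave 1580 and 1827, 1633 and 2072, and 0 to 2184 and 0 to 2536. The main fit gave 197 and 618. At 24 h (0 and 0), DESeq2 gave 2 lower, no filter 5 lower, the 3 DMSO libraries as 1 control group 1 higher, and leaving out a library 0 to 9 and 0 to 1 (9 and 1 without either inhibitor library of 48 h). At 48 h (16 and 5), a threshold of 0.01 gave 7 and 2, the library total only 2 higher, the 3 DMSO libraries as 1 control group 9 higher, and leaving out a library 12 to 19 and 2 to 6 (2 higher without either inhibitor library of 12 h, 3 without either of 24 h). For 48 h minus 12 h (1 and 1), DESeq2 gave 6 and 3, the library total only 2 lower, no filter 8 and 2, a mean log2 CPM above 1 gave 0 lower, a threshold of 0.01 gave 0 and 0, and leaving out a library 0 to 12 and 0 to 4 (12 and 4 without olaparib at 48 h, 6 and 2 without talazoparib at 48 h, 0 and 0 without any inhibitor library of 12 h or 24 h). For shEVI1-2532 (14 and 3), the library total only gave 1 higher, a threshold of 0.01 gave 8 lower, a model without the day 6 and 0, and leaving out a library 8 to 15 and 1 to 4 (8 lower without NTC or shEVI1-2532 of day 3, 1 higher without shEVI1-2532 of day 6). For shEVI1-2531 (2 and 0), DESeq2 gave 4 and 1, the library total only 10 lower, NTC and that shRNA only 4 lower, a threshold of 0.01 and a model without the day 0 lower, and leaving out a library 0 to 4 and 0 to 1 (0 lower without the NTC or shEVI1-2531 library of day 3, 4 lower without either shEVI1-2532 library, 1 higher without the NTC library of day 3). Between the shRNAs (8 and 3), a mean log2 CPM above 1 gave 5 higher, a threshold of 0.01 gave 5 and 1, a model without the day 1 and 0, and leaving out a library 3 to 10 and 0 to 4 (3 lower without shEVI1-2532 of day 3, 5 lower without shEVI1-2531 of day 3 or of day 6, 0 higher without shEVI1-2532 of day 6). Over all genes, leaving out a library gave 0 to 1016 lower and 0 to 1597 higher at 24 h (main fit 13 and 336). At 48 h it gave 2258 to 4149 and 2507 to 4068 (2950 and 3100). For 48 h minus 12 h it gave 8 to 2522 and 55 to 2157 (110 and 426). For shEVI1-2532 it gave 2471 to 3923 and 2903 to 4182 (3675 and 3935). For shEVI1-2531 it gave 763 to 1802 and 1125 to 2050 (1468 and 1767). Between the shRNAs it gave 1402 to 2423 and 1410 to 2575 (2231 and 2282). The cause of these shifts was not tested.

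The fits by hour were not run without a DMSO library, each being the only control of its hour. Replicates could not be paired, because each condition had 1 library and the labels give no replicate numbers. Libraries were matched by hour or day instead. Time point was a term of the mean and by-hour PARPi models, and day was a term of the knockdown model. With 1 library per condition and 2 to 4 residual degrees of freedom, a gene that missed the threshold is not shown to be unchanged, and genes under 1 CPM (*MLH3*, *NHEJ1*, *MUTYH*) were counted too thinly for small differences.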
